A study of Mus musculus with 30 samples.

Results

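Grm2, Grm3, Grm4, Grm5, Grm7 and Grm8 encode metabotropic glutamate receptors, and their messenger RNA was measured in the nucleus accumbens of mice after nerve injury and antidepressant treatment. The genes were chosen by name and taken as the entries of the count table whose Ensembl ID maps to these symbols. They are 6 of 55401 gene IDs in the table and 6 of the 23736 genes that were tested, so all 6 passed the filter on low counts. Other genes of the family are not analysed here. Each of the 30 libraries was polyadenylated RNA from bilateral punches of the accumbens of 1 male C57Bl/6J mouse. The animals had tibial SNI (spared nerve injury, a model of neuropathic pain) or sham surgery, and from 4 weeks on were injected intraperitoneally for 3 weeks, on 2 occasions a day. The sham groups were saline (n = 5), 30 mg/kg Tianeptine (n = 6) and 15 mg/kg Desipramine (n = 4), and the SNI groups were saline (n = 5), 30 mg/kg Tianeptine (n = 6) and 15 mg/kg Desipramine (n = 4). Sham animals on saline were the control that the submitters name. Tianeptine, an atypical antidepressant, is an agonist at mu-opioid receptors, while desipramine, a tricyclic, blocks noradrenaline reuptake. They were given at different doses, so their values are set side by side and not compared.

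Metabotropic glutamate receptors are receptors coupled to G proteins that sense the glutamate released at synapses and adjust transmission more slowly than glutamate-gated channels do. Group I, here Grm5 (mGlu5), couples to Gq and phospholipase C and lies mainly beside the postsynaptic density, held there by Homer scaffolds. Group II, here Grm2 and Grm3, and group III, here Grm4, Grm7 and Grm8, couple to Gi/o, lower cyclic AMP and act largely as brakes on release from glutamate and GABA terminals. In the accumbens, medium spiny neurons, the GABA projection neurons that make up most of its cells, receive glutamate from cortex, hippocampus, amygdala and thalamus, and the RNA of a receptor on those terminals is made in the distant cell body.

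Positions are those of GENCODE M21 on mm10. Grm5 (ENSMUSG00000049583.15) lies at chr7:87584168-88134907 on the plus strand. Of group II, Grm2 (ENSMUSG00000023192.12) lies at chr9:106643095-106656082 and Grm3 (ENSMUSG00000003974.6) at chr5:9485541-9725170, both on the minus strand. Of group III, Grm4 (ENSMUSG00000063239.17) lies at chr17:27422387-27521403 on the minus strand, Grm7 (ENSMUSG00000056755.13) at chr6:110645581-111567230 on the plus strand and Grm8 (ENSMUSG00000024211.15) at chr6:27275119-28135178 on the minus strand. Introns make up most of each span, which was 156.6 times the merged exon length for Grm7 and 2.7 times for Grm2, so counts in exons and not the deposited FPKM over whole spans were used for levels per length.

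The sequences upstream of 4 of these genes are shown because the levels of Grm3 and Grm7 moved together across libraries while Grm8 moved the other way, and because Grm2 and Grm8 were the lowest of the 6. RefSeq start sites matched 4 of the 6 members: Grm2, Grm3, Grm7 and Grm8. Each sequence is the 250 bases before a RefSeq start on GRCm38.p6, written 5′ to 3′ on the gene's own strand, with the GC box GGGCGG in capitals. For Grm7 the listed start nearer to the GENCODE gene start was taken, and for Grm8 the most upstream one.
Grm2, chr9:106656110-106656359, minus strand: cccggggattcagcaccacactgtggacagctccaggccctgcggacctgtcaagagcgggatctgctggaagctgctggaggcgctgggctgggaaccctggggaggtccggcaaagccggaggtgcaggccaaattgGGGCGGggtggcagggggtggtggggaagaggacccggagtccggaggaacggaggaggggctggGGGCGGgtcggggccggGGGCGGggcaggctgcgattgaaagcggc
Grm3, chr5:9725353-9725602, minus strand: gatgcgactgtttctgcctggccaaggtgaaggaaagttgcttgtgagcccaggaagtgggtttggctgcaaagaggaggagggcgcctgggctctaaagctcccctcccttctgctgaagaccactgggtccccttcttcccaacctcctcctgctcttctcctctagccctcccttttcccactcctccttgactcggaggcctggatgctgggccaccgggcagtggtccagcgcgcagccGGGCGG
Grm7, chr6:110645348-110645597, plus strand: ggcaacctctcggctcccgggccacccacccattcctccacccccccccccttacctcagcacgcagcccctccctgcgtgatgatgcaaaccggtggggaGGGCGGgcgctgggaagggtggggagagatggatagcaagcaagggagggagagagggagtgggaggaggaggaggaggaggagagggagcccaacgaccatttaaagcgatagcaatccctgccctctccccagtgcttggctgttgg
Grm8, chr6:28135147-28135396, minus strand: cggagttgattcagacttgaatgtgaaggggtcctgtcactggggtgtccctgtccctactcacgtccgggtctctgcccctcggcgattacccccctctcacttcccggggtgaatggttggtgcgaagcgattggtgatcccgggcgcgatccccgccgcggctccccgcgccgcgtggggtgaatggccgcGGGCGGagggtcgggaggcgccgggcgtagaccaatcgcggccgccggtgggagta
The Grm2 sequence held 3 GC boxes as written, 71.2% G or C and 16 CpG, and the Grm8 sequence held 1 GC box, 68.4% and 29 CpG. At the other listed Grm8 starts, not shown, the windows held 0 GC boxes each. One had 43.6% G or C and 2 CpG, and the next 54.4% and 8 CpG. The Grm3 sequence held 1 GC box, 62.4% G or C and 8 CpG, and the Grm7 sequence 1 GC box, 65.2% and 9 CpG. Over 32851 mouse promoters of the same length the median was 52.4% G or C and 6 CpG. Searched on both strands, GGGCGG occurred in 32.7% of those promoters, the cyclic AMP response element TGACGTCA in 1.5% and the TATA box TATAAA in 12.4%. Neither of the last 2 motifs was found in the 4 windows shown, which says only that these letters are not in these windows.

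Total counts ran from 24.5 to 120.7 M (mega) per library. By the numbers in their names the libraries form 2 sets, a first of 24 libraries with 24.5 to 37.7 M (replicates 1 to 4 of every group) and a second of 6 libraries with 98 to 120.7 M, which holds no desipramine library. The libraries carried accumbens markers, with Ppp1r1b (DARPP-32, a protein of medium spiny neurons) at 73.4 to 896 CPM and Drd1 (the D1 dopamine receptor) at 19.3 to 271 CPM, where CPM is the count of a gene per M counted reads of the library, with library totals scaled by TMM (trimmed mean of M values). A marker of neighbouring tissue varied more, and Slc17a7, the vesicular glutamate transporter of cortical neurons, ran from 1.55 to 961 CPM. A marker score is the mean over a list of log2 CPM, each gene centred on its mean over all libraries. SNI desipramine replicates 2 and 3 stood apart, with medium spiny neuron scores of -2.53 and -0.75 and septal, preoptic and hypothalamic neuron scores of 1.87 and 1.88, against 0.41 and -0.20 in replicate 4. Sham saline replicates 2 and 3 had been set apart by earlier results of these data, and were also left out together as a check. In punches, fewer cells of a type and less RNA per cell cannot be told apart.

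Levels of different genes were compared per kb of merged exons. Grm7, the group III receptor of the presynaptic active zone, averaged 43.7 CPM per kb over the 30 libraries and Grm5 averaged 41.7. Grm3, made by neurons and by glia, averaged 34.3 CPM per kb, and Grm4, a presynaptic group III receptor, averaged 19.2. Grm2, the presynaptic group II receptor, averaged 1.79 CPM per kb and Grm8, a presynaptic group III receptor of high glutamate affinity, averaged 0.77. Grm7 and Grm5 were not separated, since Grm7 was the higher in 20 of 30 libraries, with a ratio between 0.75 and 1.29. The lower steps of the order held in nearly every library: Grm5 was above Grm3 in 29 of 30, Grm3 above Grm4 in 30 of 30, Grm4 above Grm2 in 30 of 30, and Grm2 above Grm8 in 28 of 30. Within a gene, the coefficient of variation of CPM over the 30 libraries was 51.5% for Grm2 and 38.8% for Grm8, against 19.2% for Grm3, 19.9% for Grm7, 20.4% for Grm5 and 24.3% for Grm4.

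**Figure D1:**
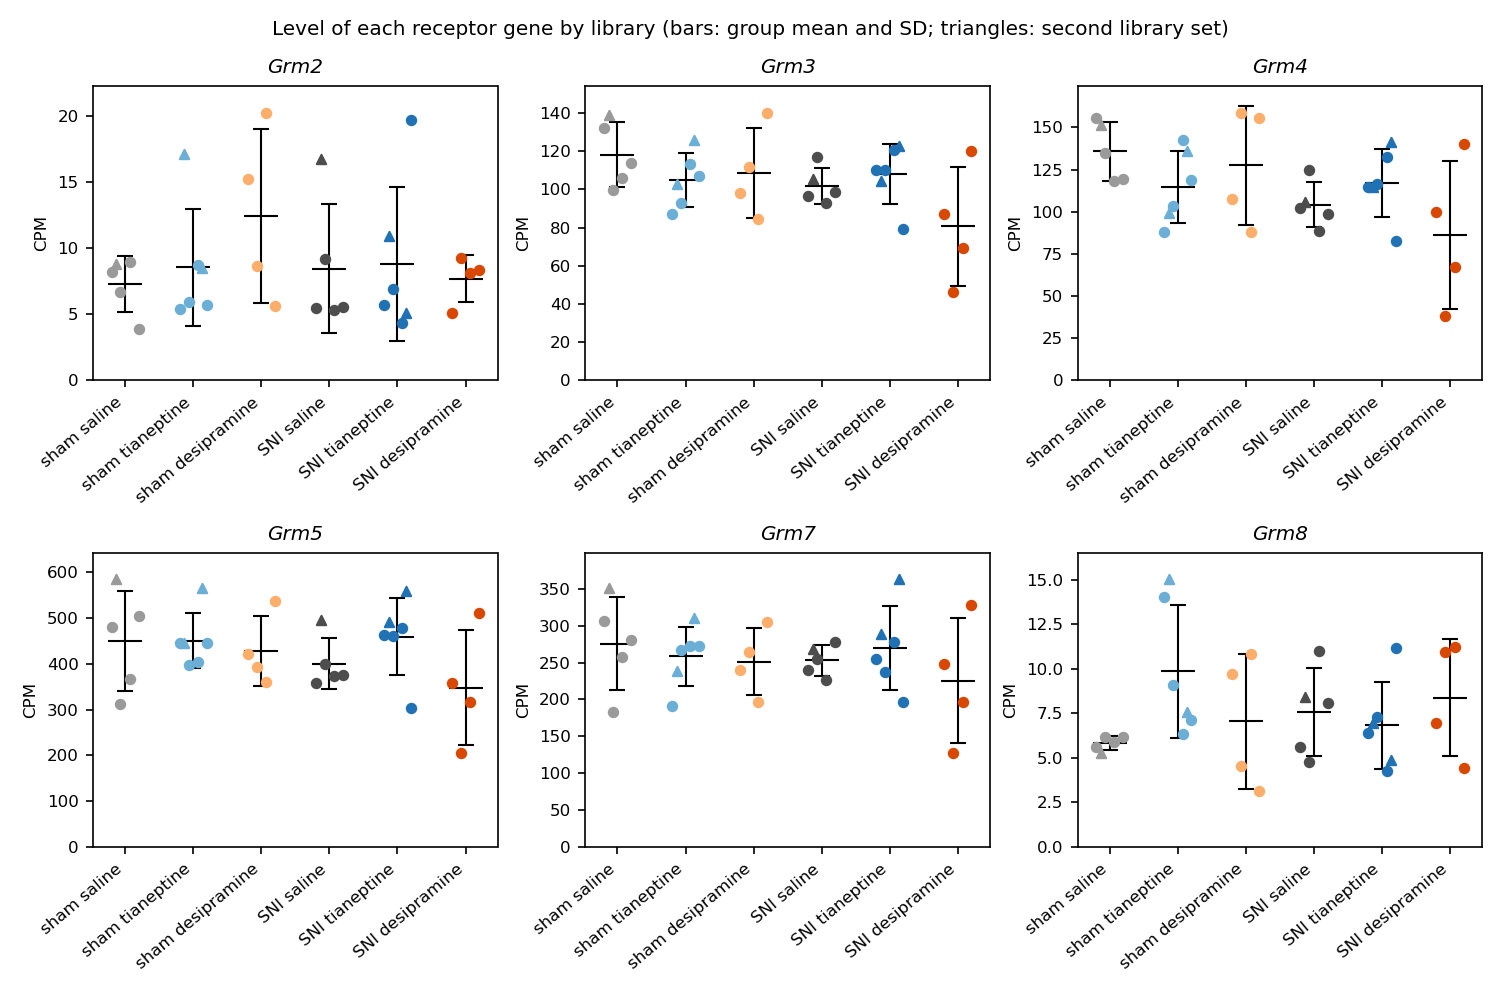
Level of each receptor gene (CPM, vertical axis, starting at 0) in every library of the 6 groups; points are libraries, triangles the second library set, and bars the group mean and SD. Grm8 in sham saline lies between 5.28 and 6.19 CPM, below each sham tianeptine library, and SNI desipramine replicate 2 is the lowest library for Grm3, Grm4, Grm5 and Grm7.

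Nerve injury and both drugs were compared with their controls in 10 comparisons by edgeR's quasi-likelihood test with a term for the library set, with Benjamini-Hochberg adjustment across the 23736 genes tested and a threshold of 0.05. No receptor gene passed in any of the 10. In SNI against sham on saline, 0 of 6 passed (background 0% of all genes) and 0 of 6 had an unadjusted p under 0.05, as 2311 of all genes did, and DESeq2 called 0 of the 6 and 2 of all genes. With tianeptine, 0 of 6 passed in sham (background 0%) and 0 of 6 in SNI (background 0%), where 1 member (Grm8) and 0 members had an unadjusted p under 0.05, as did 1623 and 681 of all genes, and DESeq2 called none of the 6. With desipramine, 0 of 6 passed in sham (background 0%) and 0 of 6 in SNI (background 0%), where 1 member (Grm2) and 0 members had an unadjusted p under 0.05, as did 1810 and 4148 of all genes, and DESeq2 again called none of the 6.

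SNI against sham averaged over the treatments gave the most calls over all genes, 437 or 1.84%. That count was between 0 and 3756 when 1 library was left out, the most without SNI desipramine replicate 4. Of the 6 receptor genes, edgeR called 0 and DESeq2 called 0. Grm4 alone of the 6 had an unadjusted edgeR p under 0.05, as did 5366 or 22.61% of all genes. Tianeptine averaged over surgeries called 0 of 6 (background 0%) and desipramine averaged over surgeries 0 of 6 (background 0.0295%). DESeq2 called 0 of the 6 in each. At an unadjusted edgeR p under 0.05 there were 0 members in each, against 1126 (4.74%) and 2973 (12.53%) of all genes. The surgery by tianeptine and surgery by desipramine interactions each called 0 of 6 (background 0% for both), with 0 called by DESeq2 in each. In the tianeptine interaction 1 member (Grm8) had an unadjusted edgeR p under 0.05, as did 997 or 4.2% of all genes. In the desipramine interaction 0 members did, against 2916 or 12.29% of all genes. The median log2 fold change of the 6 genes was -0.14 in SNI averaged over treatments, where that of all genes was 0.00. Of the 6 values 5 were below 0, those of Grm3, Grm4 and Grm5 by more than their SE. Grm3, Grm4 and Grm5 also moved together across the libraries (r from 0.79 to 0.96). In the surgery by desipramine interaction the median was -0.16 against 0.01 over all genes, and in the other 8 comparisons it lay between -0.14 and 0.17.

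**Figure D2:**
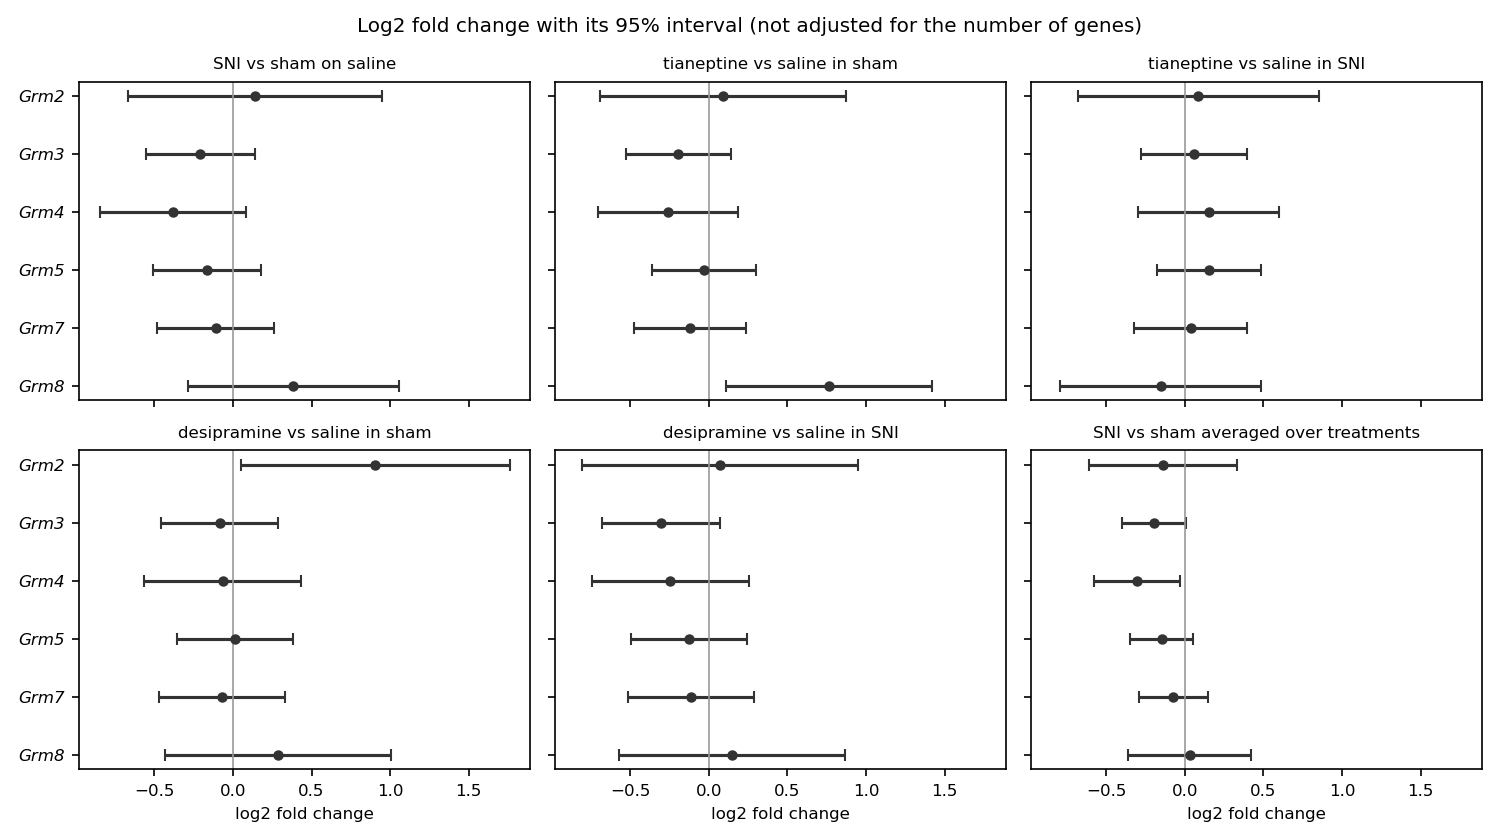
Log2 fold change (horizontal axis, points) of each receptor gene with its 95% interval (bars, not adjusted for the number of genes) in 6 comparisons. The 2 intervals that lie above 0 are Grm2 with desipramine in sham, at 0.91, and Grm8 with tianeptine in sham, at 0.76, the interval of Grm4 in SNI averaged over treatments lies below 0, and the intervals of Grm3, Grm5 and Grm7 all include 0.

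Grm5, the group I receptor that drives phospholipase C in medium spiny neurons, differed little between groups. In sham it was 481, 313, 367, 504 and 585 CPM in saline replicates 1 to 5, 398 at the lowest, 446 at the median and 565 at the highest of the 6 tianeptine libraries, and 422, 394, 361 and 537 CPM in desipramine replicates 1 to 4. In SNI it was 357, 399, 374, 376 and 496 CPM on saline, 303 at the lowest, 471 at the median and 559 at the highest on tianeptine, and 358, 206, 316 and 510.1 CPM on desipramine. The 6 groups overlapped, and the libraries of SNI desipramine spread from the lowest of all 30 to near the top. Group means were 449.8 ± 109 CPM (SD, n = 5) in sham saline and 400.4 ± 55.3 CPM (SD, n = 5) in SNI saline, a log2 fold change of -0.16 ± 0.17 (SE; edgeR adjusted p = 0.792). Without sham saline replicates 2 and 3 this value was -0.35 (adjusted p = 0.593). With tianeptine Grm5 differed by -0.03 ± 0.16 in sham and 0.15 ± 0.16 in SNI, and with desipramine by 0.01 ± 0.18 in sham and -0.13 ± 0.18 in SNI, and over these 5 comparisons the 95% intervals reached from -0.51 to 0.49.

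Grm3, the group II receptor of neurons and astrocytes, was lowest in SNI animals on desipramine. Desipramine replicates 1 to 4 in SNI had 87.4, 46.0, 69.6 and 120.1 CPM, against 96.5, 117, 92.7, 98.9 and 105 CPM on saline and 79.5 at the lowest, 110.1 at the median and 123 at the highest on tianeptine. In sham it was 132, 99.7, 106, 114 and 139 CPM on saline, 86.9 at the lowest, 105 at the median and 126 at the highest on tianeptine, and 98.3, 112, 84.7 and 140.2 CPM on desipramine. Of the 4 SNI desipramine libraries 3 lay below every SNI saline library and replicate 4 lay above every one of them, so the groups overlapped. The difference was -0.31 ± 0.18 (log2, SE; edgeR adjusted p = 0.391), and it was 0.00 ± 0.07 when medium spiny, cortical and septal scores entered the model as covariates. Without SNI desipramine replicate 4, the library of that group with the highest medium spiny neuron score (0.41), it was -0.58 ± 0.17 and Grm3 passed the edgeR test (adjusted p = 0.0253), among 3352 genes called. Without SNI desipramine replicates 2 and 3, the libraries that stood apart, it was 0.04 ± 0.17 (edgeR adjusted p = 0.9999).

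Averaged over treatments, Grm3 was 96.9 CPM in SNI and 111 CPM in sham (means of the 3 group means), a log2 fold change of -0.20 ± 0.10 (SE; edgeR adjusted p = 0.237). The tissue scores moved in the same comparison. Medium spiny neuron scores averaged 0.33, 0.09 and 0.13 in sham saline, tianeptine and desipramine and -0.03, 0.09 and -0.78 in the SNI groups in that order. All 15 of 15 listed markers were tested and none had a total of 0 counts over the 30 libraries. Their summed level was 4503 to 8725 CPM in the sham libraries and 1094 to 8195 CPM in the SNI libraries. Septal, preoptic and hypothalamic scores (15 of 17 markers tested) averaged -0.54, 0.01 and -0.44 in sham and 0.04, -0.01 and 1.06 in SNI. With these scores as covariates the Grm3 difference was -0.03 ± 0.04, and without SNI desipramine replicates 2 and 3 it was -0.08 ± 0.08. Without SNI desipramine replicate 4 it was -0.29 and passed the edgeR test (adjusted p = 0.0234), among 3756 genes called.

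Grm2, the presynaptic group II receptor, was high in 2 of the 4 sham animals on desipramine. Replicates 1 to 4 of that group had 15.2, 8.62, 20.2 and 5.62 CPM, and replicates 1 to 5 of sham saline had 8.16, 6.70, 8.97, 3.86 and 8.82 CPM. Replicates 1 and 3 were above every saline library and the other 2 lay within the saline range. The log2 fold change was 0.91 ± 0.42 (SE; unadjusted p = 0.0387, edgeR adjusted p = 0.629), with a 95% interval from 0.05 to 1.76. It was 0.57 without sham desipramine replicate 3 and 1.16 without replicate 4, with an adjusted p between 0.308 and 0.9999 over all alternatives.

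The cortical excitatory neuron score moved with it. The score was 1.60 and 1.94 in sham desipramine replicates 1 and 3, and from 0.21 to 1.14 in sham saline. The 14 cortical markers were all tested and none had a total of 0 counts over the 30 libraries. Their summed level ran from 429 to 2062 CPM in the sham desipramine group and from 659 to 967 CPM in sham saline. With the 3 tissue scores as covariates, the Grm2 difference was 0.45 ± 0.17 (edgeR adjusted p = 0.312). High single libraries occurred in other groups too: on tianeptine, sham replicate 5 had 17.1 CPM and SNI replicate 4 had 19.7 CPM, and on saline SNI replicate 5 had 16.8 CPM. The other 4 libraries of SNI saline had 5.35 to 9.15 CPM and SNI desipramine had 5.09 to 9.24 CPM. Grm2 differed by 0.14 ± 0.39 in SNI against sham on saline and by 0.07 ± 0.43 with desipramine in SNI. With tianeptine it differed by 0.09 ± 0.38 in sham and 0.09 ± 0.37 in SNI. Grm2 shares 470 exon bases with the antisense gene Gm28111, which had 42 counts in all against 13081 for Grm2. The strand setting of the counting is not given in the sources used here, so a part of the Grm2 counts is uncertain.

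Grm4, a group III receptor that curbs release from striatal and cortical terminals, was lower in SNI than sham on saline without passing the test. On saline it was 156, 135, 118, 119.7 and 152 CPM in sham replicates 1 to 5 and 102, 125, 88.5, 98.6 and 106 CPM in SNI replicates 1 to 5. In SNI 4 of 5 libraries were below every sham library and replicate 2 lay within the sham range. The difference was -0.38 ± 0.23 (log2, SE; edgeR adjusted p = 0.593) with a 95% interval from -0.85 to 0.08. Desipramine libraries had 108, 159, 87.7 and 156 CPM in sham and 99.8, 38.0, 67.2 and 140.2 CPM in SNI. Tianeptine libraries had 88.2 to 142 CPM (median 111) in sham and 82.6 to 142 CPM (median 116) in SNI. Unlike on saline and desipramine, the mean on tianeptine was not lower in SNI, at 117 CPM against 115 CPM in sham. Averaged over treatments Grm4 was 102 CPM in SNI and 126 CPM in sham, -0.31 ± 0.13 (unadjusted p = 0.0289, edgeR adjusted p = 0.169). The value was -0.07 ± 0.05 with the tissue scores as covariates, -0.15 ± 0.10 without SNI desipramine replicates 2 and 3, and -0.42 with an adjusted p of 0.0162 without SNI desipramine replicate 4.

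With desipramine in SNI, Grm4 differed by -0.25 ± 0.24 (SE; edgeR adjusted p = 0.631). The sign differed under 2 alternatives, with 0.14 ± 0.08 with the tissue scores as covariates, and 0.22 without SNI desipramine replicates 2 and 3. In sham it differed by -0.07 ± 0.24 with desipramine and by -0.26 ± 0.22 with tianeptine, and in SNI by 0.15 ± 0.22 with tianeptine.

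Grm7, the low-affinity receptor of the active zone that signals at high glutamate, had overlapping levels in the 6 groups. It was 276 ± 62.9 CPM (SD, n = 5) in sham saline, 259 ± 40.05 CPM (SD, n = 6) in sham tianeptine and 251 ± 45.6 CPM (SD, n = 4) in sham desipramine. The SNI groups had 253 ± 20.99 CPM (saline, SD, n = 5), 269.9 ± 56.4 CPM (tianeptine, SD, n = 6) and 225 ± 84.8 CPM (desipramine, SD, n = 4). Single libraries ran from 127 CPM in SNI desipramine replicate 2 to 363 CPM in SNI tianeptine replicate 6, and sham saline replicate 2 had 183 CPM against 258 to 352 CPM in the rest of its group. The differences were -0.11 ± 0.18 (log2, SE) for SNI on saline, -0.12 ± 0.17 and 0.04 ± 0.17 for tianeptine in sham and SNI, and -0.07 ± 0.19 and -0.11 ± 0.19 for desipramine in sham and SNI. Their 95% intervals reached from -0.51 to 0.40. The gene shares 130 exon bases with the antisense gene Gm20387, which had 11501 counts in all against 372073 for Grm7, and the strand setting of the counting is not given in the sources used here, so a part of these counts is uncertain.

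Grm8, the third of the group III receptors here, was higher in each sham animal on tianeptine than in each sham animal on saline. Saline replicates 1 to 5 had 5.59, 6.16, 5.90, 6.19 and 5.28 CPM. Tianeptine replicates 1 to 6 had 14.04, 9.11, 6.33, 7.13, 15.0 and 7.59 CPM. The saline group was tight and the tianeptine group wide, with replicates 1 and 5 far above the rest and replicate 3 just above the saline range. Means were 5.82 ± 0.39 CPM (SD, n = 5) and 9.87 ± 3.74 CPM (SD, n = 6), a log2 fold change of 0.76 ± 0.32 (SE; unadjusted p = 0.0236, edgeR adjusted p = 0.727) with a 95% interval from 0.11 to 1.42. Of all genes tested, 38 or 0.16% had all tianeptine libraries above all saline libraries in sham, and Grm8 was 1 of the 6 receptor genes to do so.

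The Grm8 value stayed positive, from 0.60 to 0.87, under each alternative tried, with an adjusted p from 0.502 to 1, and was lowest without sham tianeptine replicate 5. The medium spiny neuron scores of sham tianeptine replicates 1 and 5 were -0.35 and -0.38, against 0.035 to 0.517 in sham saline. The summed level of those markers was 4503 to 8058 CPM in sham tianeptine and 6037 to 8635 CPM in sham saline. With the tissue scores as covariates the Grm8 difference was 0.60 ± 0.21 (edgeR adjusted p = 0.824). In SNI, tianeptine libraries had 6.40, 7.29, 4.28, 11.2, 6.95 and 4.85 CPM and saline libraries 5.61, 4.79, 11.03, 8.06 and 8.39 CPM, which overlapped, with a difference of -0.16 ± 0.31. The surgery by tianeptine interaction was -0.92 ± 0.44 (unadjusted p = 0.0469, edgeR adjusted p = 0.989), and so the difference between surgeries did not pass. On desipramine Grm8 was 9.69, 4.52, 10.8 and 3.15 CPM in sham and 6.96, 10.9, 11.2 and 4.41 CPM in SNI, differing from saline by 0.29 ± 0.35 and 0.15 ± 0.35. With the tissue scores as covariates these differences were -0.07 ± 0.24 and -0.48 ± 0.25. The sign was the opposite, but of these desipramine values only -0.48 exceeded its SE.

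No other receptor gene separated any 2 groups completely. For libraries of the first-named group all higher or all lower, 0 of 6 did so in SNI against sham on saline (background 0.341% and 0.404%), and 0 of 6 were lower with tianeptine in sham (background 0.173%). With tianeptine in SNI the count was 0 of 6 each way (background 0.19% and 0.118%), with desipramine in sham 0 of 6 (background 0.868% and 0.834%) and with desipramine in SNI 0 of 6 (background 1.02% and 1.12%).

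Across the 30 animals, Grm3, Grm4, Grm5 and Grm7 moved together and Grm8 moved against them. Relations were computed on log2 CPM with the mean of each library set removed, 45 in all, with p from 100000 permutations and adjusted by Benjamini and Hochberg over the 45. The smallest p these permutations can give is 1e-05. Grm3 and Grm4, of groups II and III, had a Pearson r of 0.96 (permutation p = 1e-05, adjusted 3.7e-05) and a Spearman rho of 0.914 (p = 1e-05, adjusted 4.1e-05). Their r was 0.961 within the first library set (n = 24), 0.952 within the second (n = 6), 0.904 without SNI desipramine replicates 2 and 3, the libraries farthest from the median of Grm4, and 0.951 with group means removed. The other 5 relations among these 4 genes had r from 0.79 to 0.881 and rho from 0.642 to 0.816, each with an adjusted p of 0.00057 or less, and r from 0.584 to 0.849 without the 2 farthest libraries.

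Grm8 had an r of -0.747 with Grm4 (rho -0.871, permutation p = 1e-05 for both, adjusted 3.7e-05 and 4.1e-05), which was -0.739 without the 2 libraries farthest from the median of Grm8, -0.752 in the first set and -0.851 in the second. With Grm3, Grm7 and Grm5 its r was -0.724, -0.714 and -0.541, with rho of -0.822, -0.744 and -0.517 and an adjusted permutation p of 0.0089 or less. Grm2 was more loosely related to both, with r of -0.28 to -0.42 with Grm3, Grm4, Grm5 and Grm7 and 0.419 (rho 0.285) with Grm8. With Grm5, Grm7 and Grm8 the adjusted permutation p was 0.046, 0.037 and 0.037 for r and 0.065, 0.065 and 0.21 for rho. With Grm3 and Grm4 that of r was 0.1 and 0.16. In the first set r was -0.217 to -0.375 with those 4 genes and 0.32 with Grm8. In the second (n = 6) it was -0.695 to -0.918 and 0.822.

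**Figure D3:**
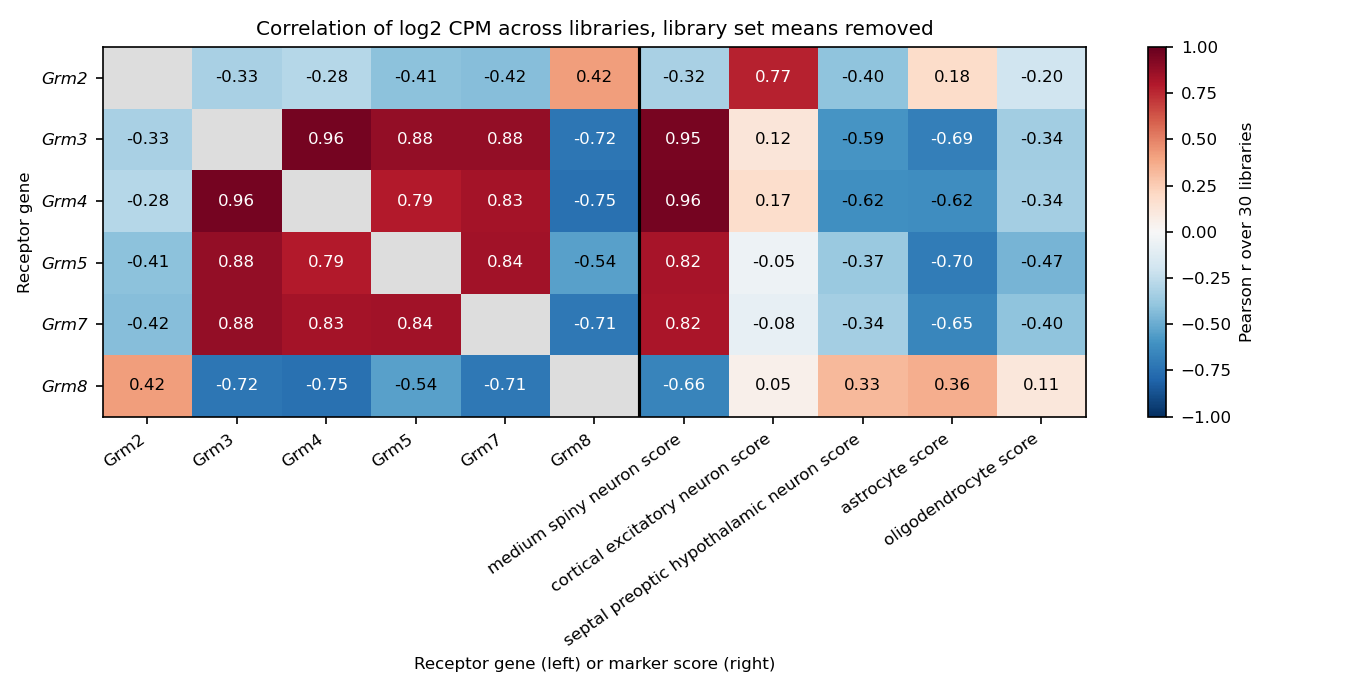
Pearson r over 30 libraries (colour and printed value) between the log2 CPM of each receptor gene (vertical axis) and that of the others (left of the line) or the marker scores of 5 cell classes (right), library set means removed. Grm3 and Grm4 reach 0.96 with each other and 0.95 and 0.96 with the medium spiny neuron score, and Grm2 reaches 0.77 with the cortical excitatory neuron score.

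The scores of medium spiny and cortical neurons followed the same grouping of the receptors. With the medium spiny neuron score, Grm4 had r = 0.957 and rho = 0.918 and Grm3 r = 0.952 and rho = 0.912 (permutation p = 1e-05 each, adjusted 3.7e-05 for r and 4.1e-05 for rho), and r was 0.915 and 0.901 without SNI desipramine replicates 2 and 3. Within the first and second library sets r was 0.962 and 0.88 for Grm4 and 0.957 and 0.866 for Grm3. Grm5 and Grm7 had r = 0.823 and 0.817 (adjusted permutation p = 3.7e-05 each), which were 0.628 and 0.657 without those 2 libraries. Grm8 had r = -0.659 and rho = -0.803 (permutation p = 1e-05 each), and r = -0.807 without them. The 7 libraries of highest Grm8 were the 7 of lowest medium spiny neuron score, from sham tianeptine replicate 5 at 15.0 CPM down to sham desipramine replicate 3 at 10.8 CPM. The match ended there, since SNI desipramine replicate 1, with the next lowest score (-0.276), had 6.96 CPM. The 7 lowest libraries of Grm3, Grm4, Grm5 and Grm7 shared 6, 6, 4 and 6 with the 7 of lowest score.

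Grm2 followed the cortical excitatory neuron score, with r = 0.766 and rho = 0.761 (permutation p = 1e-05 each, adjusted 3.7e-05 and 4.1e-05). Its r was 0.723 in the first set, 0.947 in the second, 0.689 without the 2 libraries farthest from the median score and 0.825 with group means removed. The 5 libraries of highest Grm2 were the 5 of highest cortical score and came from 4 groups: sham desipramine replicates 3 and 1, SNI tianeptine replicate 4, sham tianeptine replicate 5 and SNI saline replicate 5. The other receptor genes had r between -0.084 and 0.174 with that score.

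**Figure D4:**
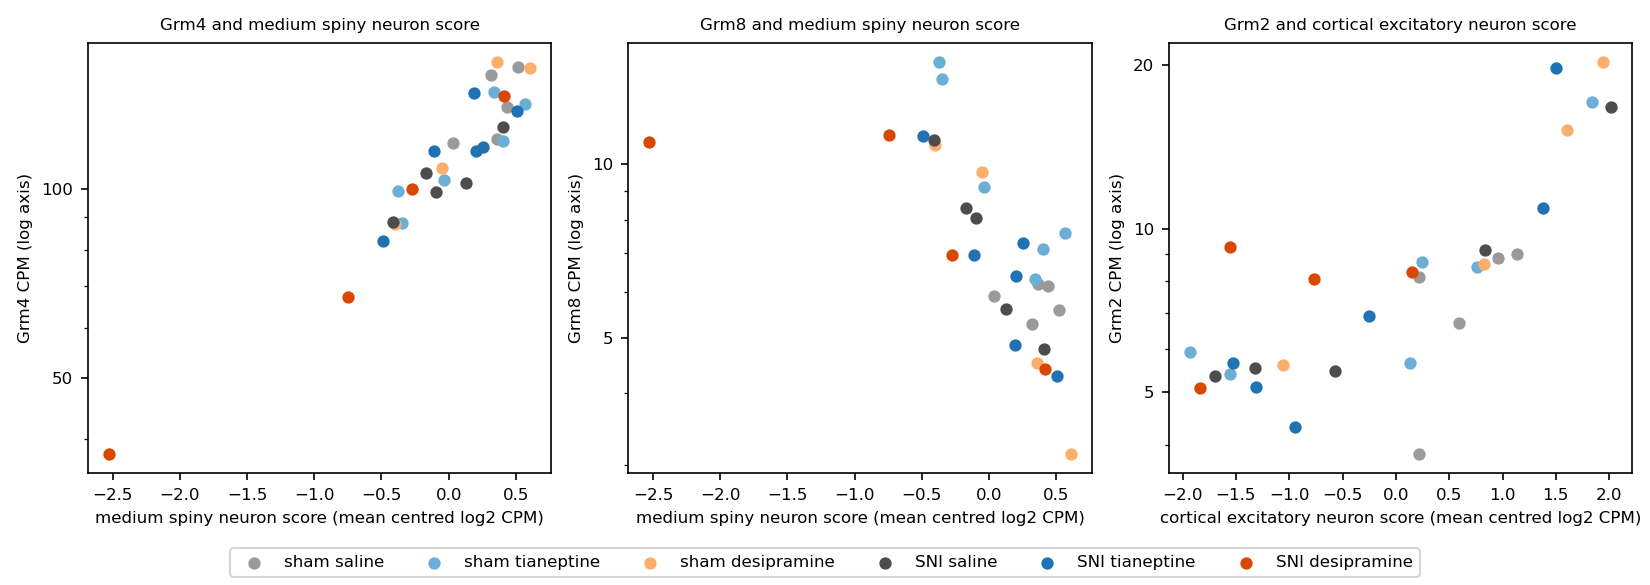
CPM (log axis) of Grm4 and Grm8 against the medium spiny neuron score and of Grm2 against the cortical excitatory neuron score (mean centred log2 CPM); each point is 1 of 30 libraries, coloured by group. Grm4 climbs and Grm8 descends with the medium spiny neuron score, SNI desipramine replicate 2 lies at -2.53, and the 5 highest Grm2 libraries lie at cortical scores of 1.497 to 2.017.

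Grm3, a receptor that astrocytes also make, ran opposite to the astrocyte score (13 of 13 markers tested), with r = -0.686 and rho = -0.566 (permutation p = 0.00012 and 0.0013, adjusted 0.00032 and 0.0035). Without the 2 libraries farthest from the median score r was -0.616, and without SNI desipramine replicates 2 and 3 it was -0.43. Grm4, Grm5 and Grm7 had r of -0.62, -0.699 and -0.652 with the same score, each r with an adjusted permutation p of 0.0011 or less, and -0.301, -0.501 and -0.443 without those 2 libraries. With the septal, preoptic and hypothalamic score, Grm3 and Grm4 had r of -0.591 and -0.616 (adjusted permutation p of 0.0016 and 0.0011) but rho of -0.326 and -0.36 (0.13 and 0.093), and r was -0.236 and -0.29 without SNI desipramine replicates 2 and 3, so these relations rest on those libraries. In the second set their r was 0.343 and 0.595, of the opposite sign to -0.665 and -0.713 in the first.

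Adding the medium spiny, cortical and septal scores to the model narrowed the error of the receptors. The median SE over the 10 comparisons went from 0.17 to 0.06 for Grm3, from 0.22 to 0.07 for Grm4, from 0.39 to 0.16 for Grm2 and from 0.32 to 0.22 for Grm8, and from 0.16 to 0.10 for Grm5 and 0.18 to 0.10 for Grm7. Grm3 and Grm4 moved closer to 0 in 10 of 10 comparisons, Grm5 in 8, Grm7 and Grm8 in 6 and Grm2 in 5. The scores were measured in the same libraries after treatment, so a difference in tissue and a difference made by surgery or drug cannot be told apart.

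**Figure D5:**
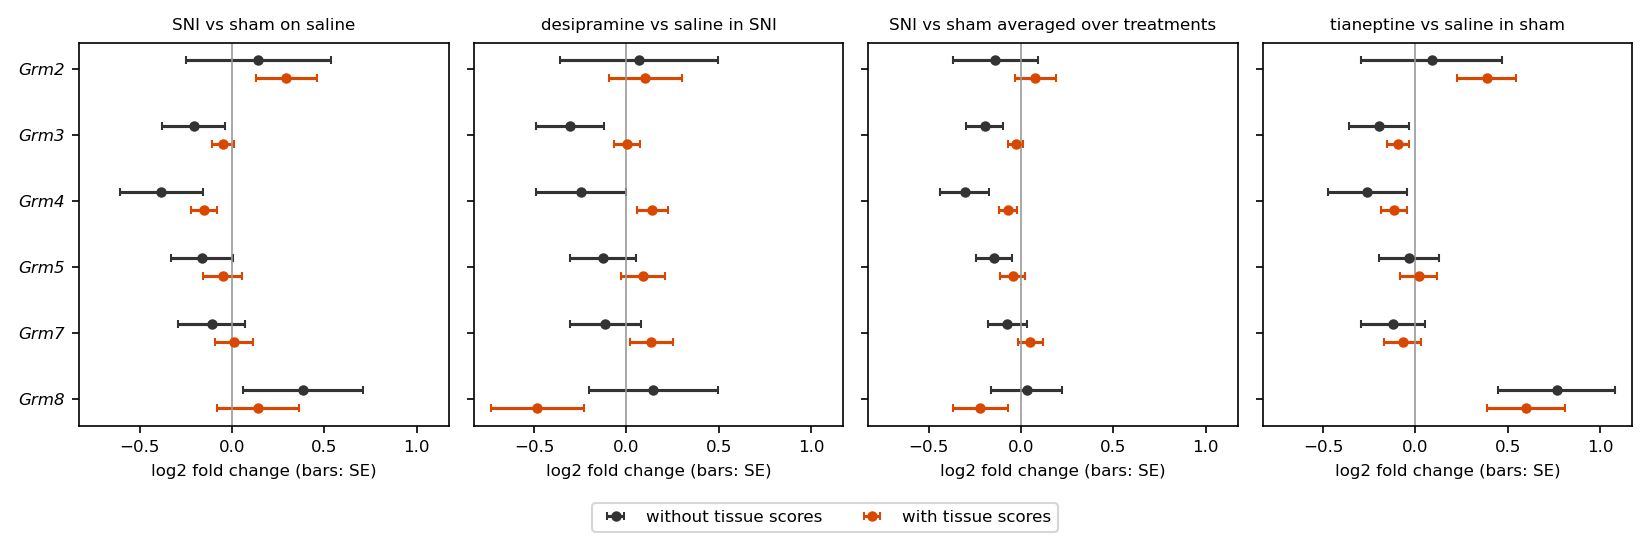
Log2 fold change (horizontal axis) of each receptor gene with its SE (bars) in 4 comparisons, without tissue scores (black) and with the medium spiny, cortical and septal scores as covariates (orange). Grm4 in SNI against sham averaged over treatments goes from -0.31 to -0.07, and Grm8 with tianeptine in sham from 0.76 to 0.60.

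The genes most like each receptor were taken as the 4 of highest Pearson r of log2 CPM over the 30 libraries, set means removed, among 13489 candidates. For Grm3 they were Gnal (0.97), Plcl2 (0.968), Foxp1 (0.967) and Rarb (0.965), and for Grm4 Bcr (0.977), Sh2d5 (0.974), Kif17 (0.974) and Adcy5 (0.969). For Grm5 they included Otud4 (0.944), Adgrb3 (0.94) and Tomm70a (0.938), and for Grm7 Sec22a (0.953), Qtrt2 (0.934), Zc3h11a (0.933) and Zar1l (0.932). For Grm2 they were Wnt7b (0.947), Xylt1 (0.941), Nmbr (0.941) and C1ql3 (0.94), and for Grm8 Gng4 (0.929), Vsnl1 (0.886), Ccdc65 (0.874) and Tcp11l2 (0.873). Grm8 had the lowest of these values and Grm4 the highest.

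Partners of group I receptors, the Gq coupling genes and Homer scaffolds, had 17 of 18 listed genes tested. On SNI averaged over treatments 1 of 17 was called lower and 0 higher, where 1.84% of all genes were called. Of the 17 values 14 were below 0, with a median of -0.19 against 0.00 over all genes. The called gene was Dagla, which makes the endocannabinoid 2-arachidonoylglycerol downstream of mGlu5, at 96.4 CPM in SNI and 114 CPM in sham, -0.24 ± 0.05 (log2, SE; edgeR adjusted p = 0.0331). Its value was -0.10 with the tissue scores as covariates, where it was not called. Plcb1, the phospholipase C of this pathway, differed by -0.37 ± 0.17 (adjusted p = 0.478) in SNI on saline. Gnaq, the Gq subunit, differed by 0.20 ± 0.05 (adjusted p = 0.19) with desipramine and 0.12 ± 0.05 (adjusted p = 0.970) with tianeptine, each averaged over surgeries.

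Partners of group II and III receptors, the Gi/o subunits, adenylyl cyclases, potassium and calcium channels and release proteins, had 17 of 17 genes tested. Elfn1, a synaptic adhesion protein that binds mGlu7 across the cleft, was called higher in SNI averaged over treatments and was 1 of 17, with 0 lower, where 1.84% of all genes were called. It stood at 63.4 CPM in SNI and 36.9 CPM in sham, 0.69 ± 0.18 (log2, SE; edgeR adjusted p = 0.0497), and at 0.12 with the tissue scores as covariates, where it was not called. With desipramine averaged over surgeries 14 of 17 values were above 0 without a call, with a median of 0.16 against 0.00 over all genes. Grip1, a PDZ scaffold, differed there by 0.22 ± 0.05 (adjusted p = 0.172) and Cacna1a, the pore of P/Q-type calcium channels, by 0.20 ± 0.06 (adjusted p = 0.238). With tianeptine averaged over surgeries, Cacna1a differed by -0.13 ± 0.05 and Unc13a, which primes synaptic vesicles, by -0.15 ± 0.06 (adjusted p = 0.970 for both).

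Genes of glutamate transport and metabolism, which set how much glutamate reaches these receptors, had 15 of 15 tested, and 1 was called higher and 0 lower in SNI averaged over treatments, where 1.84% of all genes were called. It was Folh1, the glutamate carboxypeptidase that cleaves the mGlu3 agonist N-acetylaspartylglutamate, at 12.8 CPM in SNI and 9.56 CPM in sham, 0.42 ± 0.10 (log2, SE; edgeR adjusted p = 0.0413). Its value was 0.21 with the tissue scores as covariates, where it was not called. Slc38a3, a glutamine transporter of astrocytes, differed by -0.22 ± 0.08 in SNI on saline (adjusted p = 0.440). In the other 9 comparisons no gene of the 3 lists was called by edgeR. Over 39 alternatives, which include leaving out each library in turn, the calls were kept in 17 for Dagla, 11 for Folh1 and 7 for Elfn1.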

How the data were processed

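RNA sequencing libraries of 30 mice were grouped by the surgery and treatment in their labels. Per the submitters' processing notes, reads were handled with Trim Galore, HISAT2 on mm10, SAMtools and featureCounts; the sources used here give no versions, annotation release or strand setting. The deposited count table holds the authors' whole-number counts for 55401 gene IDs. The deposited FPKM table divides by the whole gene span, introns included (43516 of 43516 genes compared, within 0.1%), so levels per length were recomputed from counts and GENCODE M21 exons. Of the IDs, 54349 matched GENCODE M21 exactly, 792 without version and 260 not at all; the 6 receptor genes matched exactly. No column was left unused. No 2 libraries of a group were near copies (smallest chi-square per degree of freedom 6.89).

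With R 4.3.3, edgeR 4.0.16 and limma 3.58.1, filterByExpr kept 23736 genes with 99.925% of counts. TMM scaling and a robust quasi-likelihood fit with 6 group terms and a library set term followed (23 residual degrees of freedom, biological coefficient of variation 17.5%). The library set was read from the numbering in the library names. Tests were 2-sided, adjusted over all genes tested, at 0.05. Log2 CPM used a prior count of 2. SE is the size of the log2 fold change divided by the square root of F. For a single gene, a direction was read only where its log2 fold change exceeded its SE. Counts of values above or below 0 go by sign alone, whatever the SE. On simulated counts for tianeptine in sham (23736 genes, 200 changed), 93% of 2-fold and 81% of 1.5-fold changes were recovered, with 6 false calls. Each gene was drawn independently of the others, so the movement that genes share across these libraries was absent. These percentages are therefore no measure of the power to call the receptor genes. In the real comparison the SE was 0.38 for Grm2 and 0.32 for Grm8.

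The receptor genes, gene lists and alternatives were chosen with earlier results of these data known. Every receptor gene was named in each comparison; of each list, members past the threshold and the 2 of smallest p in 3 comparisons (SNI on saline, and each drug averaged over surgeries) could be named; the 4 most alike genes left out predicted models and means under a log2 CPM of 1. The values of some genes this rule names are left out of the text. Alternatives were DESeq2 1.42.0, other scaling, no filter, no set term, the first set only, a replicate block, tissue scores as covariates, and libraries left out.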

Additional observations from a re-analysis of the deposited data

Results flagged for a closer look

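In 36 groups of 4 to 6 libraries (6 receptor genes in 6 groups), the highest or lowest library was compared with the nearest other, and 2 groups had a library set apart by Dixon's test at the 95% level. Chance alone gives about 1 in 20 groups. Grm2, the presynaptic group II receptor, was 17.09 CPM in sham tianeptine replicate 5, where the next library of the group had 8.69 CPM and the lowest 5.40 CPM. Grm5, the group I receptor, was 565.2 CPM in sham tianeptine replicate 6, where the next library had 446 CPM and the lowest 398 CPM. Both libraries belong to the second library set of greater depth. Sham tianeptine replicate 6 also had the highest choroid plexus score of all libraries, 4.139, where the next highest, SNI desipramine replicate 3, had 0.649. The cause of either high value was not tested.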

How the results depend on the processing

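Of 1452 values of the 6 receptor genes under 39 settings, 30 of which leave out 1 library, 3 crossed the threshold and the others kept their side of it. The sign changed in 116 values, spread over 36 of the 60 reported differences, and in 111 of them the reported value lay within 1 SE of 0. The other 5 were Grm4 with desipramine in SNI, which went from -0.25 to 0.14 with tissue scores as covariates and to 0.22 without SNI desipramine replicates 2 and 3, Grm3 with desipramine in SNI, which went from -0.31 to 0.004 and 0.04 under the same alternatives, and Grm3 with desipramine averaged over surgeries, which went from -0.20 to 0.01 with tissue scores. The 3 values that newly passed did so without SNI desipramine replicate 4 (Grm3 with desipramine in SNI, Grm3 and Grm4 in SNI averaged over treatments); leaving out 1 library gave 0 to 1 and 0 to 2 receptor genes called in those 2 comparisons and 0 in the other 8. Over all genes, DESeq2 called 2 in SNI on saline, 3 with tianeptine in sham, 21 and 523 with desipramine in sham and SNI, 1584 in SNI averaged over treatments, 3 and 134 with tianeptine and desipramine averaged over surgeries, and 4 and 93 in the tianeptine and desipramine interactions. With desipramine in sham, 2 genes were called with size factor scaling in edgeR, 23 with tissue scores and 1 without sham saline replicates 2 and 3. With desipramine in SNI 1 was called with tissue scores, and in the desipramine interaction 3 without sham saline replicates 2 and 3. SNI averaged over treatments went from 437 to 77 with no library set term and to 0 with no filter, the first set only, the replicate block, tissue scores, or either pair of libraries left out. Desipramine averaged over surgeries went from 7 to 0 in the first set, 4 with the replicate block, 29 with tissue scores and 4 without SNI desipramine replicates 2 and 3. Leaving out each library gave 0 to 2 with desipramine in sham, 0 to 3352 with desipramine in SNI, 0 to 3756 in SNI averaged over treatments, 2 to 360 with desipramine averaged over surgeries and 0 to 957 in the desipramine interaction. The cause of these changes was not tested. The labels name no pairing of animals by replicate number. The deviations of same-numbered libraries had a median correlation of -0.008 (60 pairs, from -0.635 to 0.413, with 16 over 0.1). Of 24 libraries, 3 correlated best with their own number. Such deviations also hold tissue differences between punches, so they cannot show whether same-numbered animals shared a day or litter. The replicate block called 0 receptor genes in each comparison. Grm2 and Grm8 had the fewest counts, with 113 and 75 in their lowest libraries, and the share of depth in their spread was not tested.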
